A study of Mus musculus with 21 samples.

Results

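The 10 genes Wnt7a, Wnt7b, Fzd4, Lrp5, Tspan12, Reck, Lef1, Axin2, Apcdd1 and Tnfrsf19 carry the Wnt signal by which the developing brain instructs its blood vessels to form the blood-brain barrier. They were taken by gene symbol, and they make up 10 of the 23827 gene rows in each expression table. Each symbol named a single measured transcript row, and all 10 passed the filter of at least 1 read, so no gene of the set is left out below.

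Neural progenitors of the embryonic forebrain secrete Wnt7a and Wnt7b, and the endothelial cells of the vessels that grow into it receive them. Frizzled receptors such as Fzd4, the co-receptor Lrp5, the tetraspanin Tspan12 and the membrane-anchored protein Reck stand at the endothelial surface, where Reck works with Gpr124 to recognise Wnt7 ligands and Tspan12 strengthens signalling by the related ligand norrin through Fzd4. The signal stabilises beta-catenin, which enters the nucleus, binds Lef1 and other TCF factors and switches on targets that include Axin2, Apcdd1 and Tnfrsf19 (Troy).

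Forebrains and kidneys of E14.5 mouse embryos were profiled by translating ribosome affinity purification (TRAP), in which ribosomes that carry a tagged Rpl10a protein are pulled down from a tissue lysate and the mRNA bound to them is sequenced. This ribosome-bound RNA is called the translatome, and the total RNA of a lysate the transcriptome. The 21 libraries fall into 7 groups of 3 biological replicates, each made from pooled organs per the study's supplementary record, and they hold between 21760652 and 79231692 reads on genes. All libraries, the transcriptomes included, came from embryos with 1 Gt(ROSA)26Sor-mCherry-Rpl10a allele, which Cre recombinase turns on and the ubiquitous CAGGS promoter drives, so no group lacks the allele. The allele goes back to 1 targeted embryonic stem cell clone, and embryos were picked by their mCherry fluorescence.

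The groups differ by the Cre driver and the organ. Sox2Cre+/- embryos, in which the tagged ribosome is made throughout the embryo proper, gave the brain transcriptome, brain translatome, kidney transcriptome and kidney translatome. Cdh5CreERT2+/- embryos, whose endothelial Cre is induced by tamoxifen, gave the brain and kidney endothelial cell (EC) translatomes. Emx1Cre+/- embryos gave the translatome of the Emx1 lineage, the neural cells of the dorsal telencephalon. The brain dissection took the forebrain with part of the diencephalon. In whole-organ samples, fewer cells of a type and less RNA per cell cannot be told apart.

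The labelled cell populations were checked against marker genes. In brain ECs all 10 endothelial markers (Cdh5, Pecam1, Kdr and others) were higher than in the brain translatome, at 12.7 to 22.3 times its mean RPKM (reads scaled to transcript length and library size), and their summed level was 2784 to 2879 RPKM against 146 to 166 RPKM. In kidney ECs all 10 were higher than in the kidney translatome, at 4.24 to 7.09 times. In the Emx1 lineage these markers stood at 2.69% to 22.2% of the brain translatome, whereas 6 dorsal telencephalic markers stood at 155% to 223%. The EC purifications were not free of other cells' RNA: of 8 neural markers, 6 were lower in brain ECs than in the brain translatome, 1 was higher (Nes, which angiogenic endothelium also expresses) and none was at 0, with a median ratio of 24.6% and a summed level of 759 to 919 RPKM against 2248 to 2270 RPKM. Of 5 meningeal fibroblast markers, 4 were higher in brain ECs (summed 133 to 178 RPKM against 83.5 to 96.1 RPKM), and of 7 pericyte markers 2 were higher and 4 lower (35.6 to 42.5 RPKM against 57.6 to 68.1 RPKM). In kidney ECs the 7 ureteric bud markers kept a median of 26.3%, the 5 nephron progenitor markers 15.9% and the 4 stromal markers 27.9% of the kidney translatome level. Per the study's supplementary record of libraries, the endothelial and Emx1 groups were each sequenced in a lane of their own, so lane and group cannot be told apart in the comparisons that use them.

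**Figure D1:**
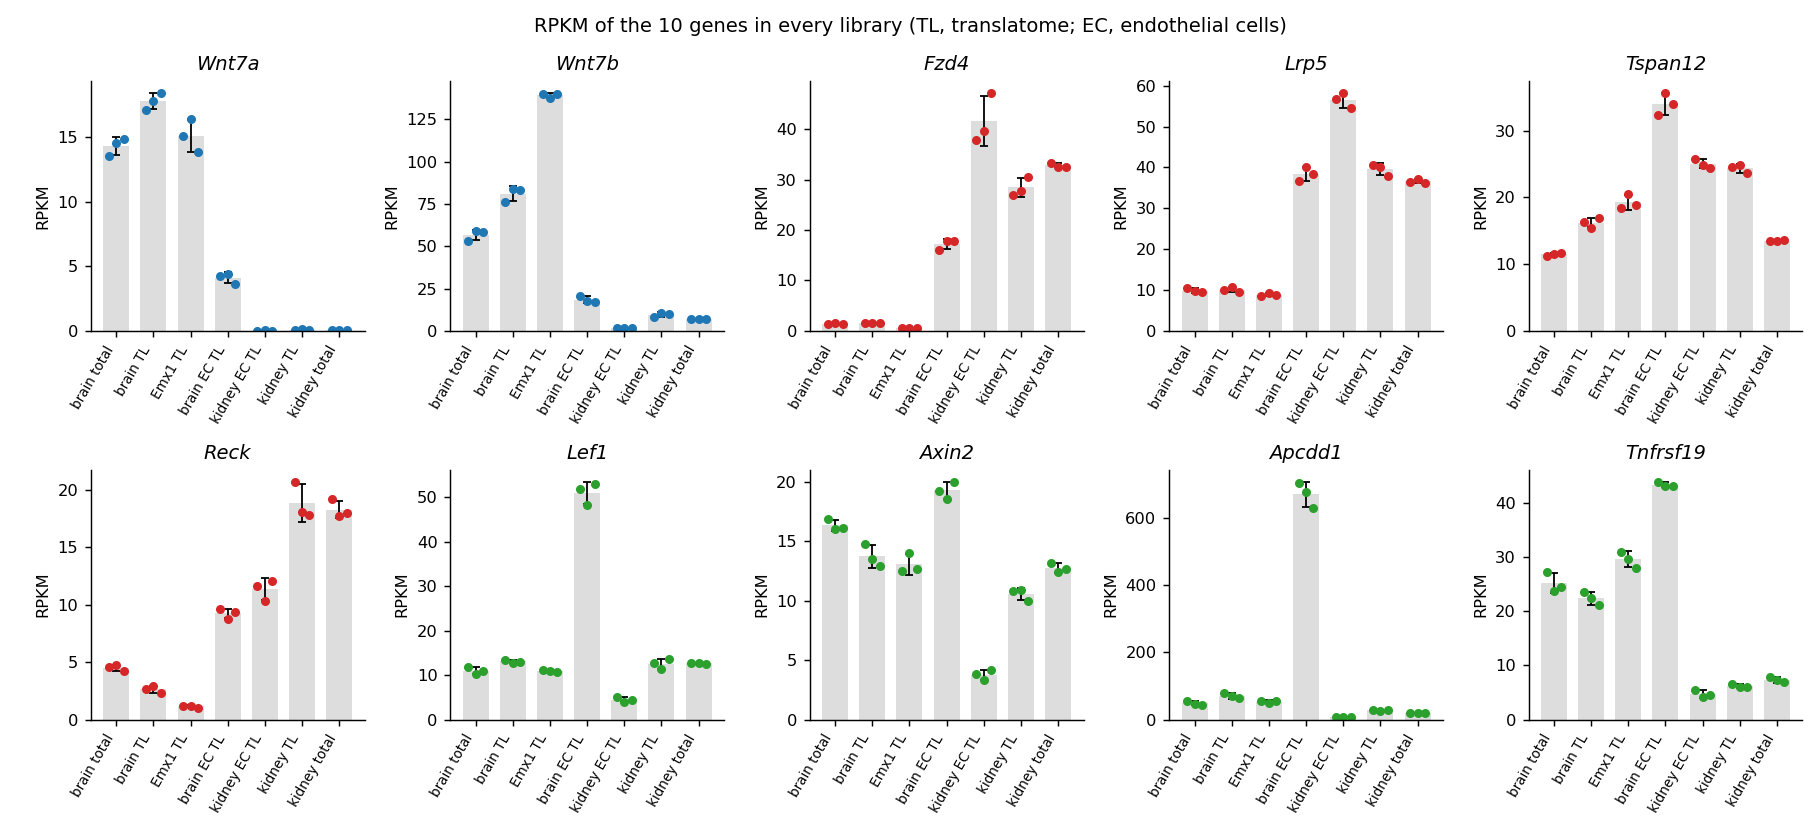
RPKM (linear axis from 0, a separate scale for each gene) of the 10 genes in the 21 libraries; grey bars are group means, whiskers 1 SD over 3 replicates, points single libraries (blue, ligands; red, receptor complex; green, nuclear factor and targets). The ligands stand highest in the whole-brain or Emx1 translatome, Fzd4 and Lrp5 highest in kidney ECs, and Apcdd1, Lef1, Tspan12, Axin2 and Tnfrsf19 highest in brain ECs.

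The question of the main comparison was which of these transcripts are enriched on the ribosomes of brain ECs relative to the whole forebrain. Compared with the brain translatome, 8 of the 10 genes were higher in brain ECs and 2 were lower (edgeR, adjusted p below 0.001), where 46.2% of all 19103 genes tested were called, 24.8% higher and 21.4% lower. The 8 enriched genes were all 4 receptor components and all 4 nuclear factors or targets, and the 2 depleted genes were the ligands. The median log2 fold change of all 10 genes was 1.73, against -0.01 for all genes tested.

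Wnt7a and Wnt7b are closely related secreted ligands, and both stood highest in the translatomes that hold neural cells. Wnt7a stood at 17.1, 17.8 and 18.4 RPKM in the 3 brain translatome libraries, at 15.1, 16.4 and 13.8 RPKM in the Emx1 lineage and at 4.28, 4.43 and 3.61 RPKM in brain ECs. Wnt7b stood at 75.8, 83.6 and 83.5 RPKM in the brain translatome, at 140, 137 and 140 RPKM in the Emx1 lineage and at 20.6, 17.5 and 17.2 RPKM in brain ECs. For each ligand the 3 EC libraries were lower than every other brain library, without overlap.

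In brain ECs Wnt7a was depleted at a log2 fold change of -1.82 ± 0.09 (SE; edgeR adjusted p = 8.73e-10) and Wnt7b at -1.84 ± 0.08 (adjusted p = 3.73e-10). What remained was 23.1% of the brain translatome level for Wnt7a and 22.8% for Wnt7b. Over whole lists, the 8 neural markers ranged from 13.1% (Stmn2) to 544% (Nes) with a median of 24.6% and Chd5 at 73.6%, the 6 dorsal telencephalic markers ranged from 10.4% to 27.8% (median 22.1%) and the 7 ventral ones from 12.3% to 38.4% (median 23.0%). Both ligands thus lay inside the range of the dorsal telencephalic markers; how much of their signal in the EC libraries came from neural RNA was not tested.

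**Figure D2:**
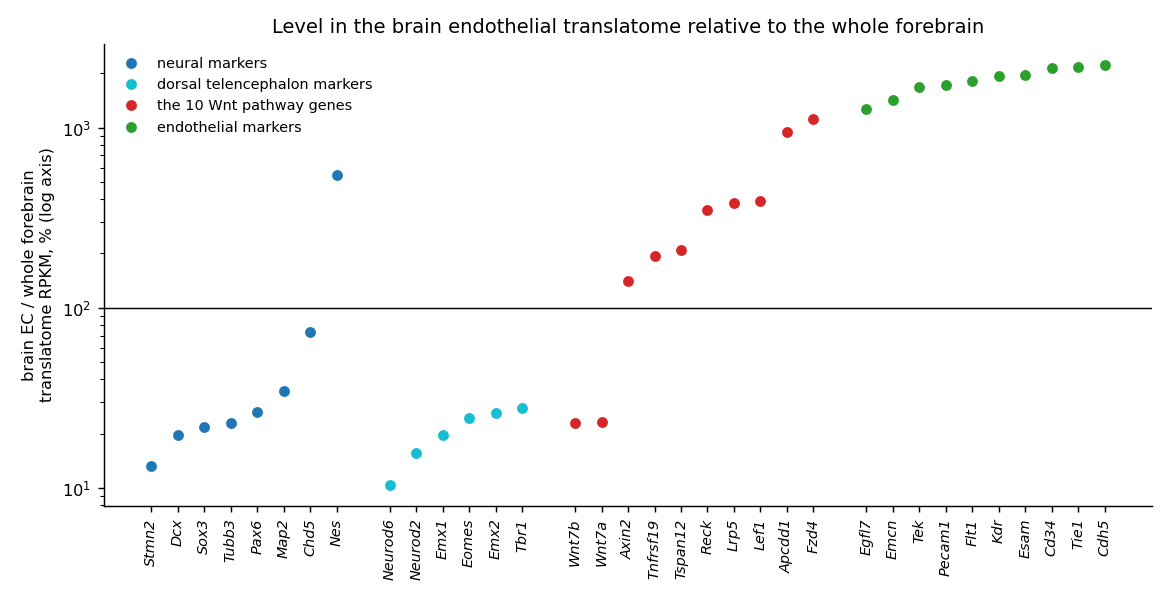
Mean RPKM in the brain EC translatome as a percentage of the brain translatome (log axis; the line marks 100%) for neural markers, dorsal telencephalic markers, the 10 Wnt pathway genes and endothelial markers, 1 point per gene. Wnt7a (23.1%) and Wnt7b (22.8%) lie within the range of the dorsal telencephalic markers (10.4% to 27.8%). The other 8 genes lie between 140% (Axin2) and 1117% (Fzd4), all below the lowest endothelial marker (1272%). The neural markers range from 13.1% to 544% (Nes), and only Apcdd1 and Fzd4 lie outside that wider range.

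The ligands differed from each other within the forebrain. Wnt7b was higher in the Emx1 lineage than in the whole brain translatome (log2 fold change 0.84 ± 0.05, edgeR adjusted p = 2.32e-09), at 1.72 times its mean RPKM, while Wnt7a stood at 85.0% (-0.18 ± 0.06, adjusted p = 0.0279). For scale, the dorsal telencephalic markers had a median of 208% and the ventral ones of 24.6% in the same comparison. Over all 10 genes, 3 were higher and 3 lower in the Emx1 lineage, where 22.1% of 19006 genes tested were called, 9.2% higher and 12.8% lower.

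Outside the brain, Wnt7a was close to the limit of detection. It had 15, 7 and 4 reads in the kidney transcriptomes, 8, 11 and 5 in the kidney translatomes and 3, 5 and 2 in kidney ECs, against 1727 to 2482 reads in the brain translatomes. Wnt7b, which the ureteric epithelium of the kidney is known to make, stood at 7.91, 10.5 and 10.1 RPKM in the kidney translatome and at 1.69, 1.83 and 1.74 RPKM in kidney ECs. Its depletion in kidney ECs (log2 fold change -2.02 ± 0.12, edgeR adjusted p = 1.27e-07) left 18.5% of the kidney translatome level, beside the 26.3% median of ureteric bud markers. For Wnt7a the same contrast was -1.61 ± 0.60 (adjusted p = 0.0399) on 2 to 11 reads per library, and a difference was not resolved at this depth.

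The receptor components were enriched in brain ECs to different degrees. Fzd4, a Frizzled receptor, rose from 1.55, 1.48 and 1.61 RPKM in the brain translatome to 16.1, 17.8 and 17.9 RPKM in brain ECs. Lrp5, its co-receptor, rose from 10.1, 10.6 and 9.62 RPKM to 36.6, 40.1 and 38.3 RPKM. No EC library overlapped a brain translatome library for either gene.

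Tspan12, which binds Fzd4, rose from 16.4, 15.5 and 16.9 RPKM to 32.4, 35.7 and 34.0 RPKM. Reck, the Gpr124 partner, rose from 2.68, 2.92 and 2.33 RPKM to 9.60, 8.79 and 9.38 RPKM. Again the 3 libraries of each group stood apart. The log2 fold changes were 3.77 ± 0.09 for Fzd4 (edgeR adjusted p = 9.74e-13), 2.21 ± 0.07 for Lrp5 (adjusted p = 1.18e-11), 2.10 ± 0.09 for Reck (adjusted p = 2.91e-10) and 1.36 ± 0.07 for Tspan12 (adjusted p = 1.50e-09).

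None of the 4 reached the enrichment of the endothelial markers. Fzd4 came nearest, at 11.2 times its brain translatome mean RPKM against a lowest marker at 12.7 times (Egfl7) and a median of 18.8 times, while Reck reached 3.50, Lrp5 3.79 and Tspan12 2.10 times. In the Emx1 lineage, where the endothelial markers had a median of 6.23%, Fzd4 kept 36.1% and Reck 43.3% of the brain translatome level (log2 fold changes -1.43 ± 0.13, adjusted p = 3.22e-07, and -1.15 ± 0.11, adjusted p = 5.57e-07), at 0.506 to 0.624 RPKM and 1.05 to 1.21 RPKM. Lrp5 stood at 8.65 to 9.33 RPKM there, 88.0% of the brain translatome mean, with no difference called (adjusted p = 0.0633). Tspan12 was 1.19 times the brain translatome mean in the Emx1 lineage (0.30 ± 0.06, adjusted p = 6.99e-04), a call that was lost without brain translatome replicate 1 or 2 or without any 1 of the Emx1 replicates. Transcripts of Lrp5 and Tspan12 were thus measured in the Emx1-lineage translatome at near whole-forebrain levels, where endothelial markers were low.

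The nuclear factor Lef1 and the targets were also higher in brain ECs, and Apcdd1 stood far above the rest. Apcdd1, a membrane-bound Wnt inhibitor that is itself a Wnt target, was at 80.1, 70.3 and 63.0 RPKM in the brain translatome and at 703, 676 and 629 RPKM in brain ECs. Lef1 was at 13.5, 12.8 and 13.0 RPKM and at 51.9, 48.1 and 52.9 RPKM. All EC libraries exceeded all brain translatome libraries for both genes.

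Tnfrsf19, a receptor of the tumour necrosis factor family, was at 23.6, 22.4 and 21.1 RPKM in the brain translatome and at 43.9, 43.0 and 43.1 RPKM in brain ECs. Axin2, the scaffold protein whose induction dampens the pathway, was at 14.8, 13.5 and 12.9 RPKM and at 19.2, 18.6 and 20.0 RPKM. The groups did not overlap, yet the shift of Axin2 was small. The log2 fold changes were 3.52 ± 0.10 for Apcdd1 (edgeR adjusted p = 6.94e-12), 2.25 ± 0.07 for Lef1 (adjusted p = 7.89e-12), 1.24 ± 0.07 for Tnfrsf19 (adjusted p = 1.59e-09) and 0.78 ± 0.07 for Axin2 (adjusted p = 4.11e-07).

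Lef1, Tnfrsf19 and Axin2 were all higher in brain ECs, so the DNA just upstream of their starts is shown (RefSeq, GRCm38.p6, coding strand). The letters searched were the TCF/LEF core CTTTGA and its reverse complement TCAAAG, in the 250 bases before each annotated start; matches are in capitals. Of 11 such windows of the 7 genes with an entry, 2 held a match, and 13.8% of all 32851 windows did. Both lie at alternative starts inside the gene and overlap no exon, at chr3:131156044-131156293 (plus strand) for Lef1 and chr14:61037988-61038237 (minus strand) for Tnfrsf19. The Axin2 window, chr11:108920099-108920348 (plus strand), lies before the annotated gene and is printed as a window without a match. The windows of Lef1 and Tnfrsf19 that lie before the annotated gene hold no match either, nor does the other internal Lef1 window. At the starts before the gene, Lef1, Tnfrsf19 and Axin2 thus do not differ in these letters.
Lef1 internal start: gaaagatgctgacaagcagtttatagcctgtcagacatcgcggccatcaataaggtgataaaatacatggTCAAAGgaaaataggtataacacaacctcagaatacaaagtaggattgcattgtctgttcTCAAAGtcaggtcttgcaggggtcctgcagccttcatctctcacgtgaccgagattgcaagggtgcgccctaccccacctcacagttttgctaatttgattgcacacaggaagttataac
Tnfrsf19 internal start: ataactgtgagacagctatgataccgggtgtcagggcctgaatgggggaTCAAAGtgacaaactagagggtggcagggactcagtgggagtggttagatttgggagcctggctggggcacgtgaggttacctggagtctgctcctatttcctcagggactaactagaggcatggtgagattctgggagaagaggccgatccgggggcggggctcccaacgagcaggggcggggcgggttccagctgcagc
Axin2 start: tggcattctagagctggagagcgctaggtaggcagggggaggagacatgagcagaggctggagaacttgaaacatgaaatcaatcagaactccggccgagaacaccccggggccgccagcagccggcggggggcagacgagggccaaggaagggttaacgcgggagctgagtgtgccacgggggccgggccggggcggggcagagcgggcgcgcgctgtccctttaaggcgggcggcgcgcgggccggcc
The windows describe these letters only; distal elements and introns were not searched, and no entry was at hand for Wnt7b, Lrp5 and Apcdd1.

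Lef1 and the targets were also measured in the Emx1-lineage translatome. There Apcdd1 stood at 49.6 to 55.5 RPKM (75.1% of the brain translatome mean), Lef1 at 10.6 to 11.0 RPKM (82.6%), Axin2 at 12.5 to 14.1 RPKM (95.1%) and Tnfrsf19 at 28.0 to 31.0 RPKM (132%). Tnfrsf19 was the only 1 of these 4 called higher there (log2 fold change 0.45 ± 0.05, edgeR adjusted p = 6.75e-06). Apcdd1 was called lower (-0.36 ± 0.07, adjusted p = 8.82e-04), a call lost without brain translatome replicate 1 or 2 or Emx1 replicate 2 or 3. Neither Lef1 (-0.22 ± 0.06, adjusted p = 0.00550) nor Axin2 (-0.02 ± 0.06, adjusted p = 0.800) passed the threshold.

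Filtering with the brain transcriptome in place of the translatome led to the same division. Again 8 genes were higher and 2 lower in brain ECs, with 51.1% of 19522 genes tested called, 26.8% higher and 24.3% lower. The log2 fold changes shifted with the reference: Apcdd1 gave 4.13 ± 0.11, Tspan12 1.90 ± 0.07 and Lef1 2.55 ± 0.08 against total RNA, and Reck gave 1.38 ± 0.08 in place of 2.10. The comparisons share the 3 EC libraries, so they are not independent of each other. Axin2 was the weakest call (0.57 ± 0.06, adjusted p = 2.26e-06), and with library totals alone as the scaling it was lost at 0.24.

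In the kidney, whose ECs form no such barrier, the same contrast gave another picture. Of the 10 genes, 3 were higher in kidney ECs than in the kidney translatome (Fzd4, Lrp5 and Tspan12) and 4 were lower (Wnt7b, Apcdd1, Axin2 and Lef1), where 31.7% of 18940 genes tested were called, 16.7% higher and 15% lower. Reck and Tnfrsf19 were not called.

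Among the receptors, Fzd4 was at 26.9, 27.8 and 30.6 RPKM in the kidney translatome and at 37.8, 39.5 and 47.2 RPKM in kidney ECs (log2 fold change 0.90 ± 0.09, edgeR adjusted p = 7.71e-06). Lrp5 was at 40.6, 40.2 and 38.0 RPKM and at 56.6, 58.1 and 54.4 RPKM (0.87 ± 0.06, adjusted p = 3.15e-07). Both were enriched without overlap of the libraries, though far less than in the brain and beside endothelial markers at a median of 6.32 times. Tspan12, at 24.5, 24.9 and 23.7 RPKM and at 25.8, 24.9 and 24.5 RPKM, overlapped between the groups on the RPKM scale, and its call (0.40 ± 0.06, adjusted p = 1.57e-04) rests on the TMM composition scaling: with library totals alone the log2 fold change was 0.03, and the call was also lost without kidney translatome replicate 3 or kidney EC replicate 1. Reck stood lower in kidney ECs, at 11.7, 10.3 and 12.1 RPKM against 20.7, 18.0 and 17.8 RPKM, but missed the threshold (-0.37 ± 0.09, adjusted p = 0.00332). It was called lower with library totals (-0.74, adjusted p = 9.07e-06), with DESeq2 (-0.37, adjusted p = 7.70e-04) and in 1 fit of all 21 libraries (-0.40, edgeR adjusted p = 2.28e-04).

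Lef1, Axin2 and Apcdd1 were lower in kidney ECs, and Tnfrsf19 was not called. Apcdd1 fell from 27.1, 26.9 and 28.6 RPKM in the kidney translatome to 8.09, 7.56 and 8.12 RPKM in kidney ECs, Lef1 from 12.6, 11.3 and 13.5 to 5.12, 3.99 and 4.38 RPKM, and Axin2 from 10.8, 10.9 and 9.95 to 3.81, 3.32 and 4.18 RPKM. The log2 fold changes were -1.44 ± 0.07 (edgeR adjusted p = 2.78e-08), -1.11 ± 0.11 (adjusted p = 9.37e-06) and -1.13 ± 0.10 (adjusted p = 2.49e-06). What remained was 28.8% for Apcdd1, 36.0% for Lef1 and 35.7% for Axin2, beside medians of 15.9% to 27.9% for the ureteric bud, nephron progenitor and stromal markers. Tnfrsf19, at 5.52, 4.12 and 4.58 RPKM against 6.54, 6.03 and 5.92 RPKM, showed a log2 fold change of -0.03 ± 0.09 (adjusted p = 0.817). That flat value rests on the TMM scaling: with library totals alone it was -0.40 (edgeR adjusted p = 0.00314), also not called.

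**Figure D3:**
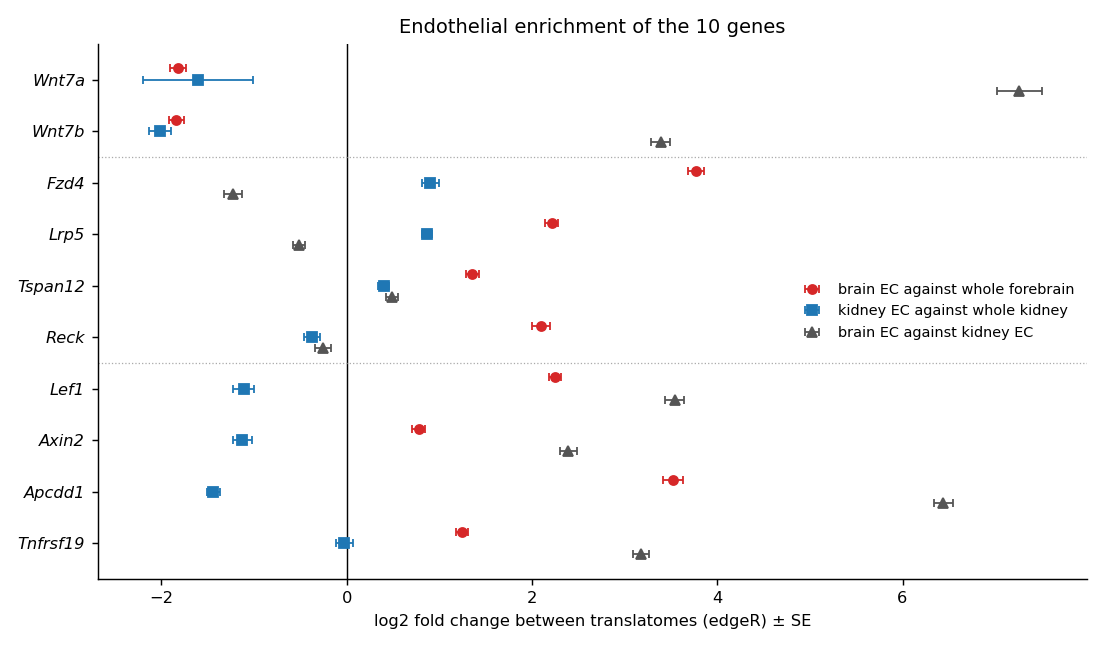
Log2 fold changes (edgeR) with 1 SE of the 10 genes in 3 comparisons of translatomes: brain ECs against the whole forebrain (red circles), kidney ECs against the whole kidney (blue squares) and brain ECs against kidney ECs (grey triangles). Lef1, Axin2 and Apcdd1 lie right of 0 in the brain and left of 0 in the kidney, and Fzd4 and Lrp5 lie right of 0 in both organs but left of 0 between the 2 EC populations.

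The difference of endothelial enrichment between the organs was tested directly, as an interaction over 12 libraries. All 4 receptor components and all 4 nuclear factors or targets passed, each with the larger enrichment in the brain, where 25.1% of 19764 genes tested passed, 16.5% in that direction and 8.6% in the other. Apcdd1 showed the widest gap (4.99 ± 0.13 on the log2 scale, edgeR adjusted p = 7.66e-14), followed by Lef1 (3.39 ± 0.13, adjusted p = 5.62e-12), Fzd4 (2.89 ± 0.13, adjusted p = 2.50e-11) and Reck (2.50 ± 0.13, adjusted p = 1.99e-10). The remaining gaps were 1.93 for Axin2, 1.37 for Lrp5, 1.30 for Tnfrsf19 and 0.99 for Tspan12. The ligands showed no difference past the threshold (Wnt7b 0.21 ± 0.14, adjusted p = 0.268; Wnt7a -0.17 ± 0.60, adjusted p = 0.954). All 10 endothelial markers passed the same test in the same direction, with gaps from 1.41 (Flt1) to 1.79 (Cd34). The gaps of Lrp5, Tnfrsf19 and Tspan12 were smaller than that of every marker, and the part of the markers' shift in the gaps of the 8 genes was not tested.

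A direct comparison of brain with kidney ECs avoids the organ references. Here 7 of the 10 genes were higher in brain ECs and 2 lower, where 37% of 19238 genes tested were called, 20.1% higher and 16.9% lower. Of the 10 endothelial markers, 4 were higher in brain ECs and 1 lower, with a median ratio of 1.17. Of 6 microglia markers, 5 were higher in brain ECs (2.15 to 6.65 times over the list, summed 25.4 to 27.9 RPKM against 6.46 to 7.05 RPKM). Of 5 meningeal fibroblast markers, 3 were higher and 2 lower (median ratio 2.64, summed 133 to 178 RPKM against 176 to 254 RPKM), and the part of either list in the differences below was not tested.

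Apcdd1, at 629 to 703 RPKM in brain ECs, was 84.4 times its mean of 7.93 RPKM in kidney ECs (log2 fold change 6.44 ± 0.10, edgeR adjusted p = 1.50e-11). Lef1 was 11.3 times higher (3.54 ± 0.10, adjusted p = 4.86e-10), Tnfrsf19 9.14 times (3.18 ± 0.09, adjusted p = 2.97e-10) and Axin2 5.12 times (2.39 ± 0.10, adjusted p = 5.93e-09).

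The receptor components did not follow the targets. Fzd4 was lower in brain ECs, at 17.2 RPKM ± 1.02 (SD, n = 3) against 41.5 RPKM ± 4.96 (-1.23 ± 0.10, edgeR adjusted p = 1.15e-06), and so was Lrp5, at 38.3 RPKM ± 1.73 against 56.4 RPKM ± 1.83 (-0.51 ± 0.07, adjusted p = 5.78e-05). Tspan12 was 1.36 times higher in brain ECs (0.48 ± 0.07, adjusted p = 8.74e-05). Reck, at 9.26 RPKM ± 0.419 against 11.4 RPKM ± 0.930, did not pass (-0.25 ± 0.08, adjusted p = 0.0213). Fzd4, Lrp5 and Reck therefore combined a larger enrichment in the brain with a mean RPKM in brain ECs below that in kidney ECs, though for Reck the difference was not called.

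Both ligands were higher in brain than in kidney ECs, Wnt7b at 10.5 times (3.39 ± 0.10, edgeR adjusted p = 6.74e-10) and Wnt7a at a log2 fold change of 7.26 ± 0.25 (adjusted p = 1.77e-09) against only 2 to 5 reads per kidney EC library. All 8 neural markers were also higher in brain than in kidney ECs, so the neural RNA in the brain EC libraries moves with these values, and its part was not tested. Lef1, Axin2, Apcdd1 and Tnfrsf19 exceeded their own brain translatome level in brain ECs and the ligands did not. On the same scale the 8 neural markers ranged from 13.1% (Stmn2) to 544% (Nes). The 5 meningeal fibroblast markers ranged from 78.4% (Lum) to 562% (Foxc1). The part of other cells' RNA in the levels of Lef1, Axin2, Apcdd1 and Tnfrsf19 was not tested.

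The enrichments are relative to organ references that themselves differed. Between the whole-organ translatomes, 5 genes were higher in the brain and 4 lower, where 53.4% of 19241 genes tested were called, 27.2% higher and 26.2% lower. Fzd4 stood at 1.54 RPKM ± 0.0664 in the brain and 28.4 RPKM ± 1.92 in the kidney (-4.00 ± 0.08, edgeR adjusted p = 4.36e-14), Reck at 2.64 RPKM ± 0.299 and 18.8 RPKM ± 1.63 (-2.63 ± 0.09, adjusted p = 1.04e-11), and Lrp5 at 10.1 RPKM ± 0.506 and 39.6 RPKM ± 1.41 (-1.77 ± 0.06, adjusted p = 3.79e-12). The remaining gene that was lower, Tspan12 (-0.38 ± 0.06, adjusted p = 8.23e-05), lost its call without brain translatome replicate 1. Lef1 was not called between the organs, at 13.1 RPKM ± 0.359 and 12.5 RPKM ± 1.15 (0.27 ± 0.09, adjusted p = 0.0115). The endothelial markers had a median brain to kidney ratio of 0.374 in the same libraries.

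Ordered by level, Apcdd1 in brain ECs (669 RPKM ± 37.6) was followed by the brain translatome (71.1 RPKM ± 8.62), the Emx1 lineage and the brain transcriptome, whose libraries overlap, then the kidney translatome, kidney transcriptome and kidney ECs. Lef1 led in brain ECs (51.0 RPKM ± 2.51), with the other brain groups and both whole-kidney groups between 10.8 and 13.1 RPKM and in part overlapping, and was lowest in kidney ECs (4.50 RPKM ± 0.572). Axin2 spanned the narrowest range in the brain, from 13.1 RPKM in the Emx1 lineage to 19.3 RPKM in brain ECs. Reck was highest in the kidney translatome and transcriptome (18.8 and 18.3 RPKM, overlapping) and lowest in the Emx1 lineage (1.14 RPKM ± 0.0855).

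Beyond the 10 genes, 80 other Wnt pathway genes were counted by list. In brain ECs against the brain translatome 22 were higher and 28 lower (24.8% and 21.4% of all genes tested), and in kidney ECs against the kidney translatome 9 were higher and 40 lower (16.7% and 15% of all). By the interaction test, the fold change of ECs over the organ was greater in the brain for 30 of the 80 and greater in the kidney for 8 (16.5% and 8.6% of all). These counts include genes that were only less depleted in the brain, such as Fzd2 (-0.89 in the brain, -1.80 in the kidney). The median difference of the 80 was 0.61 on the log2 scale against 0.15 for all genes tested.

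**Figure D4:**
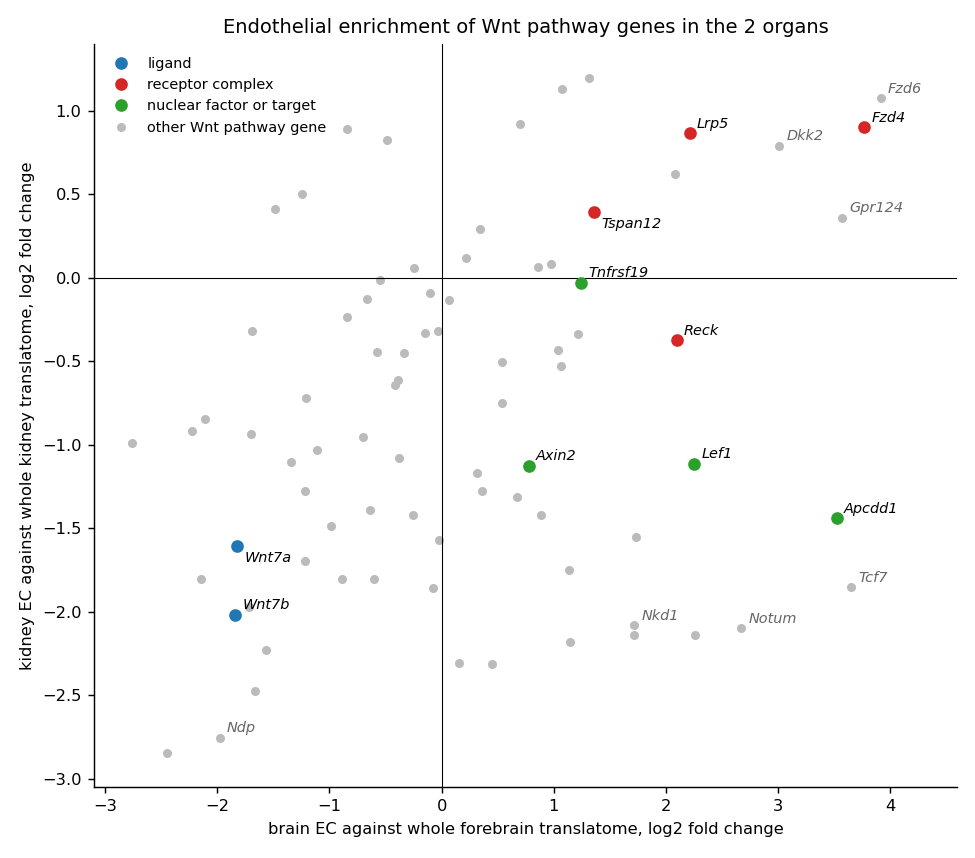
Log2 fold change (edgeR) of ECs against the whole-organ translatome, in the brain (horizontal axis) and the kidney (vertical axis), for the 10 genes and 71 other Wnt pathway genes with a mean of at least 1 RPKM in any of the 4 translatomes, 1 point per gene. Fzd4, Lrp5 and Tspan12 lie in the upper right, Lef1, Axin2 and Apcdd1 in the lower right with Tcf7, Nkd1 and Notum, and the ligands in the lower left with Ndp.

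Of the 18 other ligand genes, 2 were higher and 5 lower in brain ECs. Ndp, which encodes norrin, the other ligand of Fzd4, was at 1.16 RPKM in brain ECs against 5.61 RPKM in the brain translatome (-1.98, edgeR adjusted p = 2.69e-08) and at 8.18 RPKM in the Emx1 lineage (0.60, adjusted p = 1.97e-05). Wnt3a (-2.45), Wnt3 (-2.23) and Wnt8b (-1.72) were lower too, and Wnt6 (2.26) and Wnt4 (1.13) were higher. Of the R-spondins and their receptors 3 were lower, with Rspo3 at 2.26 RPKM against 18.7 RPKM (-2.76), and 1, Znrf3 (1.04), was higher. Of 3 genes for ligand lipidation and secretion, Porcn, the acyltransferase that lipidates Wnt proteins, was lower (-1.69), and the deacylase gene Notum (2.67) and the carrier gene Wls (1.06) were higher.

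Of 9 other Frizzled genes 2 were higher and 4 lower. Fzd6 reached 60.6 RPKM in brain ECs from 4.90 RPKM in the brain translatome (3.92, edgeR adjusted p = 6.20e-13) and 16.0 RPKM in kidney ECs, so that it, and not Fzd4, was the Frizzled gene with the highest RPKM in brain ECs. Fzd10 was also higher (1.73), and Fzd3 (-1.70), Fzd9 (-1.24), Fzd2 (-0.89) and Fzd8 (-0.49) were lower. Among 5 other co-receptors, Gpr124, the Reck partner, rose from 8.30 to 80.7 RPKM (3.57, adjusted p = 5.99e-11), Lrp6 (0.97) was 1 of 2 others that were higher, and Ror2 (-0.70) and Ryk (-0.39) lower. In kidney ECs Gpr124 stood at 59.8 RPKM and in the kidney translatome at 59.6 RPKM. The fit, which scales for composition as RPKM does not, called it higher in kidney ECs (0.36 ± 0.07, edgeR adjusted p = 7.66e-04).

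Of 11 cytoplasmic transducers 3 were higher and 5 lower, led by Ctnnb1, the gene of beta-catenin (1.31), and by Dvl3 (-1.21). Of 7 other nuclear factors 2 were higher and 3 lower: Tcf7, a close relative of Lef1, rose from 6.23 to 64.1 RPKM (3.65, edgeR adjusted p = 1.71e-12), and Tcf7l2 fell from 117 to 32.4 RPKM (-1.49). Tcf7, like Lef1, was lower in kidney ECs than in the kidney translatome (-1.85), and its interaction was 5.53 (adjusted p = 4.83e-14). Among 12 genes of secreted antagonists and of the Kremen receptors that bind Dkk proteins 3 were higher (Dkk2 3.01, Kremen1 1.21, Frzb 1.15) and 4 lower (Sfrp4 -2.11, Sfrp2 -1.56, Wif1 -1.34, Sfrp1 -0.98). Of 10 genes listed as other pathway targets or regulators, 6 were higher and 1, Dixdc1 (-1.11), was lower. Tcf7 and Znrf3 are among the 6 and were already counted in the lists above. Nkd1, an inhibitor of Dishevelled, rose from 26.6 to 71.7 RPKM (1.72), and Ccnd1 (2.08) and Myc (1.07) rose as well.

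Between the 2 EC populations, 23 of the 80 were higher in the brain and 22 lower, against 20.1% and 16.9% of all genes tested. Nkd1 (3.83), Tcf7 (3.77), Sp5 (3.11) and Fzd10 (2.92) were higher in brain ECs, as were Wnt6 (3.43) and Notum (1.76). Lgr4 (-3.52), Rspo1 (-2.28), Dkk1 (-4.75), Myc (-1.57) and Ccnd1 (-1.15) were higher in kidney ECs. Of the 10 genes listed as other pathway targets or regulators, 5 were higher in brain ECs and 4 lower. The 5 were Nkd1, Tcf7, Sp5, Dixdc1 (1.41) and Nkd2 (1.07). The 4 were Myc, Ccnd1, Rnf43 (-1.16) and Lgr5 (-3.39), and Lgr5 stood at only 0.0755 RPKM in brain ECs and 0.821 RPKM in kidney ECs.

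Genes of the endothelial barrier that respond to beta-catenin were followed as the outcome side of the pathway. Of 9, 8 were higher in brain ECs than in the brain translatome and Cldn3 was lower (-1.24). Slc2a1, the glucose transporter of the barrier, stood at 722 RPKM in brain ECs against 48.6 RPKM (4.18), Cldn5, its main claudin, at 1263 RPKM against 68.3 RPKM (4.50), and Mfsd2a, a lipid transporter, at 170 RPKM against 16.2 RPKM (3.68). Plvap, a protein of fenestrated vessels, was also higher in brain ECs than in the forebrain (4.29) but lower than in kidney ECs, at 84.4 RPKM against 419 RPKM (-2.27, edgeR adjusted p = 2.47e-08). Mfsd2a (8.74), Foxq1 (5.72) and Slc2a1 (4.92) were higher in brain than in kidney ECs.

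Genes with the profile most similar to that of a member were sought among 11518 transcripts by Pearson's r of log2(RPKM + 1) over the 21 libraries, which share 7 groups and so give few independent points. Apcdd1 was most like Zfp551 (r = 0.975), Mfsd2a (0.972) and Abhd2 (0.968), of which Mfsd2a dropped out at a pseudocount of 0.1 RPKM. Lef1 was most like Aqp11 (0.962), Fam13a (0.960) and Spock2 (0.958), and Tnfrsf19 most like Rgs12 (0.986). For Wnt7a the closest was Svop (0.999), but none of its 3 nearest genes was shared when a pseudocount of 0.1 RPKM was used, and for Wnt7b (Lmo1, 0.992) and Fzd4 (Itpr3, 0.996) 1 of the 3 was.

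Translated and total RNA were compared within each organ, in lysates whose replicate numbers mark the same tissue sample. In the brain the main fit, which leaves this pairing out, called 4 genes higher in the translatome and 1 lower. Of 19446 genes tested, 37.1% were called, 18.6% higher and 18.5% lower. Tspan12 (16.2 against 11.5 RPKM), Wnt7b (81.0 against 56.6 RPKM), Apcdd1 (71.1 against 48.4 RPKM) and Wnt7a (17.8 against 14.3 RPKM) were higher, by log2 fold changes of 0.53, 0.55, 0.59 and 0.34, and Reck was lower (2.64 against 4.50 RPKM, -0.74 ± 0.09, edgeR adjusted p = 6.57e-06). With the replicate number as a block, Lef1 (0.29, adjusted p = 2.68e-04) and Axin2 (-0.22, adjusted p = 9.34e-04) passed as well. Within the sequencing lane that 4 of these libraries share, 3 genes were called, and Wnt7a (0.41, adjusted p = 0.00195) and Apcdd1 (0.38, adjusted p = 0.0165) were not; Apcdd1 also lost its call without brain translatome replicate 1 and Wnt7a without any 1 translatome replicate or transcriptome replicate 1.

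In the kidney the main fit, again without the pairing, called 2 genes higher in the translatome and none lower. Of 19336 genes tested, 30.7% were called, 14.9% higher and 15.8% lower. Tspan12 was at 24.4 against 13.5 RPKM (0.85 ± 0.05, edgeR adjusted p = 3.09e-07) and Apcdd1 at 27.6 against 19.7 RPKM (0.48 ± 0.05, adjusted p = 1.56e-05). Within the lane that 4 of the kidney libraries share, the values were 0.81 (adjusted p = 9.37e-05) and 0.54 (adjusted p = 5.59e-04), and no other gene of the set was called. With the replicate number as a block, which raised the count from 2 to 6, Wnt7b (0.44, adjusted p = 7.10e-14) was also higher and Fzd4 (-0.21, adjusted p = 6.42e-07), Axin2 (-0.27, adjusted p = 4.20e-08) and Tnfrsf19 (-0.20, adjusted p = 9.43e-04) were lower. Reck, depleted on brain ribosomes, showed 0.04 ± 0.06 (adjusted p = 0.586) in the kidney.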

How the data were processed

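RNA of forebrains and kidneys was sequenced in 21 libraries of 7 groups, taken from the labels. Per the labels and methods, the authors prepared TruSeq libraries with a kit that does not mark strand, mapped reads with RUM to GRCm38 (mm10) and counted them with rpkmforgenes on UCSC refGene. The deposited Reads are whole-number counts per gene, without normalization. The deposited RPKM values are the authors' own and carry no composition scaling, so an RPKM ratio and a fitted fold change can differ. Each table has 23827 rows; 392 repeated rows were left in.

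Counts were tested with edgeR 4.0.16 (R 4.3.3; quasi-likelihood F test, TMM, genes with at least 1 count) in 8 comparisons, each on its own 6 libraries, and in 1 interaction over 12. P-values were adjusted by Benjamini-Hochberg over all genes tested, with a threshold of 0.001. The standard error is the size of the log2 fold change over the square root of F. The procedure was tried on simulated counts in which few genes changed, as many up as down. At a log2 fold change of 1 it recovered 87 of 100 genes for brain ECs against the brain translatome. For brain against kidney ECs it recovered 81 of 100. So balanced a setting cannot test the TMM scaling where many genes change. Alternatives were DESeq2 1.42.0, RLE factors, library totals, a stricter filter, a replicate block, 1 fit of all 21 libraries, 1 row per symbol, an adjusted p of 0.05, and leaving out each library; fits within a shared lane were chosen after seeing the data.

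Same-numbered translatome and transcriptome libraries come from the same tissue sample per the study's supplementary records, and their deviations correlated at 0.477 to 0.646 in the brain and 0.687 to 0.723 in the kidney. Brain and kidney EC libraries of the same number correlated at 0.173 to 0.378 and were treated as paired in the block fit; other groups did not pair. Replicates differed by more than sampling noise in all 21 pairs. Replicates are pooled organs per the same records, and p-values measure the spread between such pools.

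Total counts ranged from 21760652 to 79231692 per library; precision is given by the SD over 3 replicates and the SE of the fit, and counting limits matter for Wnt7a in the kidney. Because strand was not kept, reads of antisense genes cannot be told apart where exons overlap in GENCODE vM21: 13.8% of the exonic bases of Lef1, 6.61% of Wnt7b, 3.80% of Axin2 and 2.96% of Tspan12.

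The 10 genes and all gene lists were chosen with earlier results of these data known, so no count over a list is independent support. All 10 genes are named. From each list, genes past the threshold with a mean of at least 1 RPKM in either group were named, at most 4 per direction. The exception is the list of other pathway targets or regulators between brain and kidney ECs. There every called gene is named, Lgr5 below 1 RPKM included. Promoter sequence comes from RefSeq.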

Additional observations from a re-analysis of the deposited data

Results flagged for a closer look

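The enrichment of 8 genes in endothelial cells over the whole-organ translatome differed between brain and kidney by the interaction test (edgeR, adjusted p below 0.001), each being larger in the brain. The differences on the log2 scale were 4.99 for Apcdd1, 3.39 for Lef1, 2.89 for Fzd4, 2.50 for Reck, 1.93 for Axin2, 1.37 for Lrp5, 1.30 for Tnfrsf19 and 0.99 for Tspan12. All 10 endothelial markers passed in the same direction, at 1.41 to 1.79, and the gaps of Lrp5, Tnfrsf19 and Tspan12 were smaller than any of these. For Lef1, Axin2 and Apcdd1 the 3 EC libraries of each organ moved in opposite directions from the organ mean, with higher RPKM in the brain and lower RPKM in the kidney.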

How the results depend on the processing

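Of 1248 alternative values for the 10 genes with a test, 1204 kept direction and side of the threshold, 29 lost the call, 15 gained it and none reversed. All 10 calls of brain ECs against the brain translatome held under every alternative run, with 10 of 10 called when any library was left out. At an adjusted p of 0.05, the genes called rose to 10509 for kidney ECs against the kidney translatome, 11469 for brain against kidney ECs, 8580 for the Emx1 lineage, 10855 for the brain and 9754 for the kidney translatome against transcriptome, and 8522 for the interaction. In the kidney translatome against transcriptome, the replicate block gave 9496 genes and 6 members, DESeq2 gave 4 members, an adjusted p of 0.05 gave 6 members, and the shared lane gave 3736 genes; in the brain the shared lane gave 3 members. Between brain and kidney ECs the block kept 7 genes higher and 2 lower, and it changed no other call in the paired comparisons beyond those given in the report. In the Emx1 lineage, whose numbers do not pair with those of the brain translatome, it removed the Tspan12 and Apcdd1 calls, as did the stricter filter. No called value changed sign when the log2 ratio of mean RPKM + 1 was used. Library totals in place of TMM moved the median of all genes by -0.29, -0.335 and -0.38 for brain ECs against translatome and transcriptome and for kidney ECs, and by -0.179 between the organ translatomes. The split of higher and lower genes then went from 4740 and 4084 to 3397 and 6002, from 5232 and 4750 to 3763 and 6862, and from 3163 and 2837 to 1564 and 5655, and for the Emx1 lineage to 1183 and 2778. For the interaction DESeq2 gave 3377 and 2695 against 3258 and 1700. Depth limits Wnt7a in the kidney, at 2 to 15 reads per library, and Fzd4 had 73 to 148 reads in the Emx1 libraries.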
